A study of Mus musculus with 1920 samples.

Results

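Cdc42 and 9 further genes of cell polarity were followed in single intestinal stem cells (ISCs) of young and aged mice. The 10 genes were chosen by name from 55471 listed genes, with no threshold on a measured value. They were the small GTPases Cdc42, Rac1 and Rhoa, the genes Pard3, Pard6b and Prkci of the apical Par complex, Scrib, Dlg1 and Llgl2 of the lateral Scribble group, and the fate determinant Numb. All 10 were found in the count matrix and all passed the filter on low counts.

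Epithelial cells keep an apical and a basal side because groups of proteins exclude each other from the membrane. Cdc42 is a switch that is active when it holds GTP, and active Cdc42 binds Par6 and releases the kinase activity of the atypical protein kinase C in the Par complex. That kinase keeps Lgl, Scribble and Dlg proteins at the lateral membrane. Rac1 and Rhoa steer the actin cortex, and Numb, which lowers Notch signaling, can be handed to only 1 daughter of a dividing cell. In the intestine this machinery orients the spindle in the crypt and builds the brush border of the absorptive cells. The data are RNA levels and say nothing of how much Cdc42 holds GTP.

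The cells came from the small intestine of 3 mice labelled young and 4 labelled old, called aged here, and all of them were B6.129P2-Lgr5tm1(cre/ERT2)Cle/J animals. That allele puts a green fluorescent protein and a tamoxifen-dependent Cre into the Lgr5 locus, so cells were sorted by high activity of the locus, and a differentiating daughter that still holds the protein can enter the gate. The sources used here do not give the ages in weeks or the sexes of the sequenced mice. According to the study's methods, crypts of every mouse were taken apart in medium with the ROCK inhibitor Y27632, which blocks kinases that act downstream of Rhoa, so no library shows these cells without it.

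Each cell was sequenced by a full-length method without molecular identifiers, and its values are read counts. Of 1920 cells, 1836 had at least 1000 detected genes and were used, with a median of 305492 reads and 9398.5 genes. Their reads summed to between 49447464 and 134408884 per mouse. A read of Lgr5, the sorted locus, was present in 93.1% to 99.5% of cells of a mouse and a read of Olfm4, another ISC gene, in 99.7% to 100%. In 1543 cells the ISC markers had the highest mean of 8 marker lists (called ISC-led here), and a list of another cell type led in 293. The latter made up 10.6%, 25.8%, 24.3% and 28.4% of cells in aged mice 1 to 4, whereas young mice 1 to 3 had 12.5%, 6.49% and 8.24% (exact two-sided permutation test, p = 0.0857). Bulk sums over cells cannot tell fewer cells with a transcript from less transcript in each, so shares of cells are given as well.

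Cdc42 was the most abundant of the 10 transcripts per length. Its level, in CPM per kilobase of exon (CPM being the reads of a gene relative to all reads of the library, after TMM scaling of the libraries), was 92.2 ± 8.58 (SD, n = 7), which lay above 97.8% of the genes tested. Llgl2, a Lgl family protein of the lateral membrane, followed with 20.4 ± 5.83, Rhoa with 18.0 ± 1.92, Rac1 with 16.6 ± 2.00 and Numb with 16.2 ± 3.06. Cdc42 was above Llgl2 in 7 of 7 mice. The order among these 4 genes was not fixed between mice, since Llgl2 was above Rhoa in 4 of 7, Rhoa above Rac1 in 5 of 7 and Rac1 above Numb in 4 of 7. Length was that of all annotated exons of a gene merged, so the order depends on the annotation. In mean CPM not divided by length, Rhoa (135.0) was above Llgl2 (98.7), and Cdc42 (273.3) was still the highest.

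The genes of the Par complex were lower. Prkci, the atypical protein kinase C iota of that complex, reached 7.11 ± 2.45 CPM per kilobase (SD, n = 7) and was below Numb in every mouse. The scaffold gene Pard3 reached 3.19 ± 0.466, but not divided by length its mean of 46.3 CPM was above that of Prkci (39.5). The lowest were the lateral scaffolds Dlg1 with 2.12 ± 0.440 and Scrib with 2.00 ± 0.472, and Pard6b, the Par6 adaptor that active Cdc42 binds, with 1.77 ± 0.592. Dlg1 was above Scrib in 4 of 7 mice and Scrib above Pard6b in 5 of 7, so these 3 neighbors did not differ beyond their spread.

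**Figure D1:**
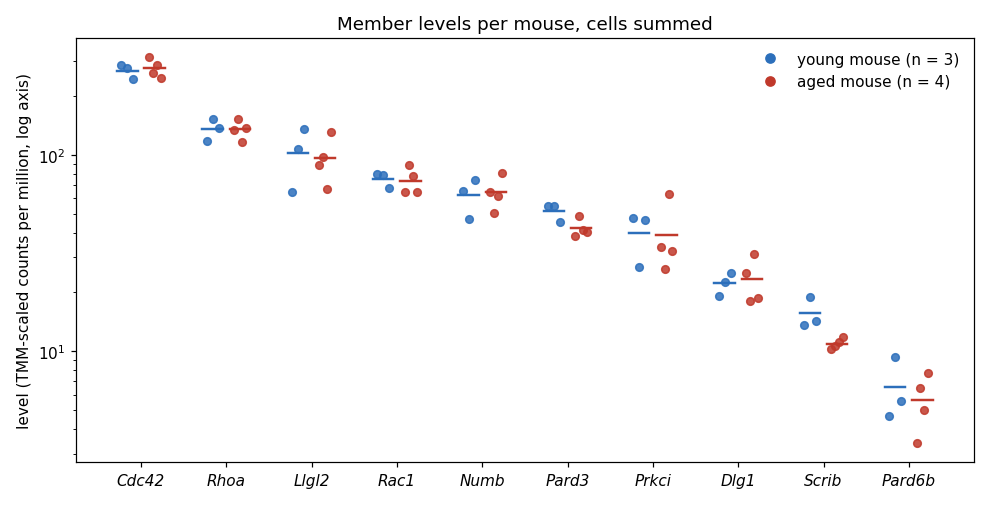
Levels of the 10 genes in each mouse, as CPM after TMM scaling on a log axis, with reads of all cells of a mouse summed. Each point is 1 mouse and each bar a group mean. Here not divided by length, Cdc42 lay between 242.5 and 313.9 in all mice and Pard6b between 3.40 and 9.37.

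The count of Rac1 was the least certain. In GENCODE M21 on GRCm38, 51.4% of its exon bases (chromosome 5, 143503634 to 143528036, minus strand) also lie in exons of Daglb, a lipase gene on the opposite strand, and the sources used here do not say whether counting used the strand. The overlap was 4.75% for Rhoa (chromosome 9, 108306129 to 108337934, plus strand) and 4.24% for Numb (chromosome 12, 83794034 to 83921934, minus strand). Cdc42 (chromosome 4, 137319696 to 137357720, minus strand) shared no exon base with another gene, and 2.19% of the 50-base stretches of its exons recurred in exons of other genes. The remaining 6 members shared no exon base with another gene.

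The first comparison asked whether RNA of these genes differed between aged and young mice. None of the 10 passed an adjusted p of 0.05 in the quasi-likelihood test of edgeR, in DESeq2 or in limma voom. With edgeR 0% of the 20957 genes tested were called (0 genes), and 1098 genes or 5.24% had an unadjusted p under 0.05. DESeq2 called 177 genes (0.845%) and limma voom 2. The members had a median log2 difference of -0.04, against 0.01 over all genes tested. With 7 mice this comparison could show large differences only, and the interval of each gene gives the size left possible.

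Cdc42, in CPM, was at 313.9, 261.5, 287.1 and 245.7 in aged mice 1 to 4. It was at 287.2, 275.5 and 242.5 in young mice 1 to 3. The values of the 2 ages overlapped throughout, with aged mouse 1 the highest and young mouse 3 the lowest. Aged mice had 1.03 times the level of young mice (277 ± 29.9, SD, n = 4, against 268.4 ± 23.2, n = 3), a log2 difference of 0.05 with a 95% interval from -0.30 to 0.39 (edgeR, adjusted p = 1). That interval runs from 0.814-fold to 1.31-fold. In ISC-led cells alone the log2 difference was 0.04.

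The 2 sister GTPases were as close. Rhoa, the GTPase that drives actomyosin contraction, was at 134.3, 151.2, 116.3 and 137.3 CPM in aged mice 1 to 4 and at 117.0, 152.3 and 136.9 in young mice. Its log2 difference was -0.01 with an interval from -0.36 to 0.35. Rac1, which promotes branched actin at the leading edge, was at 64.9, 88.3, 77.6 and 64.2 in aged and at 80.0, 78.4 and 67.9 in young mice. Its log2 difference was -0.03 with an interval from -0.40 to 0.34. Young mouse 2 was the highest for Rhoa by a narrow margin, aged mouse 2 was the highest for Rac1, and the ages overlapped in both.

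Scrib was the member with the largest difference. This scaffold, which holds the lateral domain together with Dlg and Lgl proteins, was at 10.2, 10.6, 11.1 and 11.7 CPM in aged mice 1 to 4. It was at 13.6, 18.9 and 14.2 in young mice 1 to 3, so each aged mouse lay below each young mouse. Such groups without overlap were found for 5.62% of the 20957 genes (1177), and among the members for Scrib alone. The log2 difference was -0.51 ± 0.20 (SE), or 0.70-fold, with an unadjusted edgeR p of 0.0291. After adjustment over all genes the edgeR p was 0.878, and over 20 alternatives the adjusted p ranged from 0.419 to 1.00. The log2 difference was -0.53 in ISC-led cells alone, where the levels still did not overlap (11.2 ± 0.887, SD, n = 4, against 16.2 ± 3.01, n = 3). A code in the cell names is shared by 384 cells, the number that the methods give per sequencing lane, and cells were taken to share a lane where they share it. Within the 3 such lanes that held both ages the log2 difference was -1.19, -0.30 and -0.55, where young mouse 2 is the young sample in 2 of the 3, so these are not independent pairs.

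Of the Par complex, Pard3 was at 38.5, 48.8, 41.3 and 40.5 CPM in aged and at 55.0, 54.8 and 45.5 in young mice. Aged mouse 2 lay above young mouse 3, and the other aged mice lay below all young mice. The log2 difference was -0.29 with an interval from -0.64 to 0.06 (edgeR, adjusted p = 1), and within the 3 lanes, 2 of them with young mouse 2, it was -0.39, -0.41 and -0.27. Prkci spread more widely, from 26.2 to 63.4 in aged and from 26.7 to 47.4 in young mice, with a log2 difference of -0.04 and an interval from -0.76 to 0.68. Pard6b ran from 3.40 to 7.73 in aged and from 4.68 to 9.37 in young mice, with a log2 difference of -0.21 and an interval from -1.02 to 0.60, and with lane as a block the difference was -0.64. As folds these last 2 intervals ran from 0.59 to 1.6 and from 0.494 to 1.51.

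Dlg1, the partner scaffold of Scrib, did not share its separation of the ages. It lay between 17.9 and 31.1 CPM in aged and between 19.1 and 25.1 in young mice, with a log2 difference of 0.06 and an interval from -0.46 to 0.58. Llgl2 lay between 66.9 and 131 in aged and between 64.2 and 135.8 in young mice, with a log2 difference of -0.09 and an interval from -0.73 to 0.55. Numb lay between 50.4 and 81.1 in aged and between 47.3 and 74.0 in young mice, with a log2 difference of 0.05 and an interval from -0.42 to 0.52. The ages overlapped in all 3 genes.

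**Figure D2:**
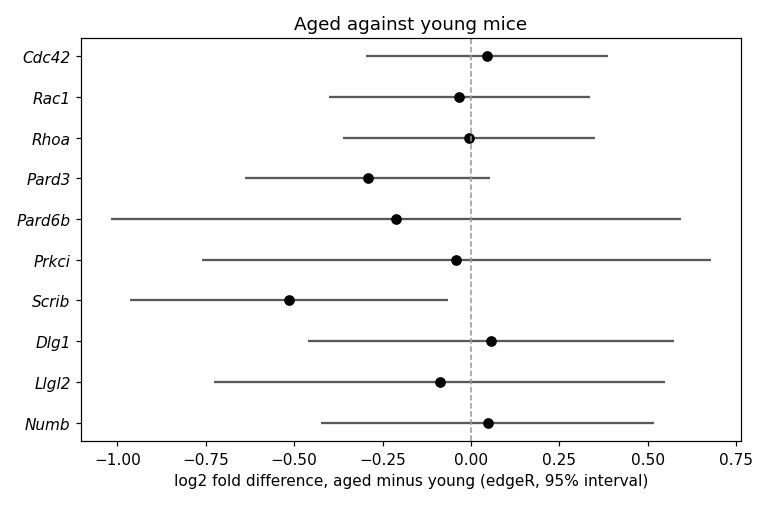
Log2 difference of each gene, aged minus young mice, from edgeR on reads summed per mouse (4 aged, 3 young). Points are estimates and lines 95% intervals without adjustment for the number of genes. Every interval but that of Scrib (-0.96 to -0.06) holds 0.

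Markers of other cells were summed in the same mice. Between the ages edgeR called none of the enterocyte, Paneth, goblet and ISC markers, as of all genes, while DESeq2 called 1 enterocyte marker. An unadjusted edgeR p under 0.05 was found for 7 of 12 enterocyte markers, all higher in aged mice. It was found for 4 of 19 ISC markers, all lower, against 5.24% of all genes. Of 11 Paneth cell markers 1 had such a p, lower in aged mice, and of 7 goblet cell markers 0. Of 12 enterocyte markers 11 were higher in aged mice, and their summed level was 1051 to 2831 CPM in aged and 1001 to 1309 in young mice. For 11 Paneth cell markers 9 were higher (14592 to 32123 against 8353 to 28672), and for 7 goblet cell markers 7 (615 to 3016 against 382 to 1146). Of 19 ISC markers 16 were lower (16235 to 25781 against 19554 to 22888). The sums of the ages overlapped in all 4 lists, and no marker of these lists was at 0 in all mice. Outside these lists DESeq2 called 2 of 8 enteroendocrine markers, a list with 5 genes higher and 3 lower in aged mice. It called 0 of 6 tuft cell markers tested, with 5 higher and 1 lower. In ISC-led cells alone the members' log2 differences ran from -0.53 (Scrib) to 0.11 (Dlg1).

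The 192 genes of 9 lists around the members were read from the same fit, and 177 of them passed the filter on low counts. With edgeR 0 of 177 were called. At an unadjusted p under 0.05 there were 5 higher and 7 lower in aged mice (against 5.24% of all genes). The median log2 difference was -0.09, with 69 genes higher and 108 lower. DESeq2 called 2 genes. The median was -0.08 for 32 effectors of Cdc42 and Rac and -0.09 for 13 effectors of Rhoa. It was -0.07 for 19 further genes of the Par and lateral complexes, -0.29 for 10 genes of the apical Crumbs complex, -0.08 for 17 genes of planar polarity and 0.00 for 14 genes of spindle orientation and cell fate. Over all 9 lists the medians ran from -0.29 to 0.08.

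The 2 genes called by DESeq2 moved in opposite directions. Rhov, an atypical relative of Cdc42, was at 2.50, 0.729, 0.618 and 1.87 CPM in aged and at 9.36, 3.82 and 6.35 in young mice. Its log2 difference was -2.18 ± 0.54 (SE), with an adjusted p of 0.00829 in DESeq2 and 0.485 in edgeR. Rac2, the Rac typical of blood cells, was at 2.86, 0.547, 2.62 and 1.57 in aged and at 0.305, 0.035 and 0.389 in young mice. Its log2 difference was 2.98 ± 0.85 (SE), with an adjusted p of 0.0192 in DESeq2 and 0.687 in edgeR. In both genes the ages did not overlap, and both were below 10 CPM in every mouse. Of 8 immune markers, Cd3e, Cd52, Cd79a, Coro1a and Laptm5 stayed below 1 CPM in every mouse, whereas Ptprc, Cd74 and Lyz2 did not. The list summed to 986 to 3985 in aged and 1379 to 2710 in young mice, nearly all of it from the latter genes.

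In other lists the gene with the lowest unadjusted p was named whatever its size. Msi1, an RNA-binding protein that represses Numb translation and is also in the ISC marker list, was at 8.71, 9.34, 10.4 and 12.0 CPM in aged and at 16.3, 16.4 and 14.7 in young mice, without overlap. Its log2 difference was -0.64 ± 0.20 (SE), with an adjusted edgeR p of 0.713. Arhgap31, which turns off Cdc42 and Rac1, had 9.99 ± 3.48 (SD, n = 4) in aged and 4.90 ± 0.594 (n = 3) in young mice, again without overlap, and a log2 difference of 1.03. Wasf1, a subunit of the WAVE complex that links Rac to actin, was at 0.585 ± 0.221 and 1.99 ± 1.26, and Amotl1, an angiomotin of the Crumbs complex, at 1.62 ± 1.55 and 10.5 ± 4.73. Fzd6, a planar polarity receptor, was at 6.90 ± 1.25 and 10.3 ± 1.91. The ages did not overlap in Wasf1 and Amotl1 either, but they did in Fzd6. Among the 177 list genes 17 were without overlap (9.60%, against 5.62% of all genes). For Arhgap31, Wasf1, Amotl1 and Fzd6 the adjusted edgeR p was between 0.694 and 0.936. Pard6a with -0.43 and Cit, a kinase of the cleavage furrow, with 0.53 had an adjusted edgeR p of 1.

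Close relatives of the members were measured too. Prkcz, the other atypical protein kinase C, was at 4.75 ± 0.511 CPM per kilobase (SD, n = 7), below Prkci on average, and Llgl1 at 7.05 ± 2.09, below Llgl2. Pard3b reached 2.76 ± 0.332 and Dlg3 1.66 ± 0.269. Of the Par6 genes, Pard6a was at 2.84 ± 0.690 and Pard6g at 0.701 ± 0.345, so Pard6b was not the most abundant of them per length. Rhob and Rhoc were at 4.42 ± 1.41 and 4.32 ± 1.43, whereas Rac2, Rac3 and Numbl were at 0.383, 0.221 and 0.029. None of these relatives apart from Rac2 passed the threshold between the ages in edgeR or DESeq2.

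The second comparison asked whether cells of aged mice were more uneven in these transcripts. Cells were thinned to 100000 reads each, which kept 1732 cells and left out 104, and each mouse was given the share of its cells with a read and the SD between its cells of log2(CPM + 1). Cdc42 was read in 100%, 97.8%, 98.9% and 98.5% of cells of aged mice 1 to 4 and in 99.3%, 98.3% and 98.9% of young mice. Its SD between cells was 0.917, 1.51, 1.42 and 1.29 in aged and 1.32, 1.34 and 1.22 in young mice. Aged mouse 1 had the most even Cdc42 and aged mouse 2 the least even, with the young mice between them. The mean SD differed by -0.01, aged minus young (exact two-sided permutation test, p = 0.971). With 4 against 3 mice there are 35 divisions and no p below 0.0286.

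The other genes covered a wide range of shares. Rhoa was read in 93.2% to 98.9% of cells of a mouse, Rac1 in 87.0% to 96.6%, Llgl2 in 87.5% to 97.7% and Numb in 80.8% to 89.8%. Pard3 was read in 71.1% to 90.1%, Prkci in 64.5% to 89.5%, Dlg1 in 57.8% to 69.3%, Scrib in 39.2% to 55.4% and Pard6b in 16.3% to 30.7%. Without thinning the shares were higher for the low genes, for example 22.8% to 40.5% for Pard6b. The order of the mean shares was that of the levels not divided by length. In no member did the shares of the ages separate (6.43% of 19222 genes did).

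**Figure D3:**
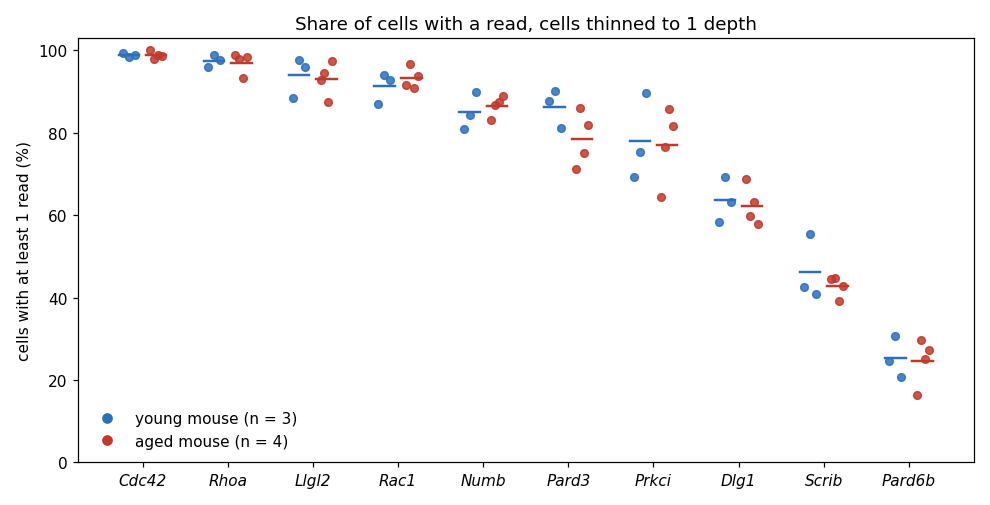
Share of cells with at least 1 read of each gene, in percent, after thinning each cell to 100000 reads. Each point is 1 mouse and each bar a group mean. Cdc42 was read in at least 97.8% of cells of every mouse and Pard6b in at most 30.7%, and the ages overlap in each gene.

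The SD between cells separated the ages in Scrib alone, against 6.84% of 19222 genes. Scrib had 2.41, 2.26, 2.32 and 2.25 in aged and 2.58, 2.55 and 2.42 in young mice, so cells of aged mice were the less spread. The difference was -0.21 (exact two-sided permutation test, p = 0.0571). The separation was not seen when cells were thinned to 50000 reads (-0.15) or not thinned (-0.19). Its mean level was also lower in aged mice, and the part of the level in the SD was not tested. For the other 8 genes besides Cdc42 the exact p ranged from 0.314 to 0.971.

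Over thinned cells within mice the 5 genes most like Cdc42 among 7707 genes with a read in at least 50% of cells were Actb (cytoplasmic actin), the epithelial keratin genes Krt8 and Krt19, Ldha (lactate dehydrogenase) and Ywhaz (a 14-3-3 protein). Their mean rank correlation with Cdc42 over the 7 mice was 0.419, 0.404, 0.366, 0.366 and 0.362, and for Actb it lay between 0.264 and 0.556 in single mice. The next 5 were Mdh2, Atp5b, Atp5a1, Epcam and Atp5f1, with 0.361 to 0.351. The median over all genes compared was 0.117. All are abundant transcripts, Cdc42 correlated with the number of detected genes of a cell at 0.297, and cells of 1 mouse are not independent.

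The members moved with each other only weakly. Over 45 pairs the mean rank correlation within mice had a median of 0.050 and ran from -0.02 to 0.264. The highest pair was Cdc42 with Rhoa, and the next were Rhoa with Llgl2 (0.203), Pard3 with Llgl2 (0.168) and Cdc42 with Numb (0.141). Cdc42 reached 0.033 with Prkci and 0.012 with Pard3. Rhoa ranked 140 among the genes most like Cdc42, and the next member was Numb at 2648. Counts of Scrib and Pard6b were sparse, with a read in at most 55.4% and 30.7% of cells of a mouse. A weak correlation is not taken as a finding for any pair.

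The third comparison asked how the genes move with the cell cycle. In ISC-led cells the mean of 20 G2/M genes, none of them a member, was used to divide the cells of each mouse into 3 equal parts, and reads were summed over the highest and the lowest part. Cdc42 and Rhoa were higher in cells high in G2/M genes. Of all genes, 16.0% were called in this comparison (2583 of 16126), 9.02% higher and 6.99% lower, against 2 of 10 members, both higher.

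Cdc42 was at 311.5, 231.5, 267.4 and 219.4 CPM in low cells of aged mice 1 to 4 and at 335.7, 267.1, 335.0 and 265.4 in their high cells. In young mice 1 to 3 it went from 296.9, 241.8 and 228.1 to 379.4, 293.2 and 264.5. It was higher in 7 of 7 mice, by 0.25 ± 0.06 (SE) on the log2 scale, or 1.19-fold (edgeR, adjusted p = 0.0205). The call was lost, with a like difference, without aged mouse 2 (0.26, adjusted p = 0.0558), aged mouse 4 (0.24, 0.0724) or young mouse 2 (0.23, 0.0769).

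Rhoa, which drives the contractile ring at the end of division, rose as well. It went from 112.7, 150.0, 121.1 and 128.6 CPM in low cells of aged mice to 164.3, 179.8, 151.6 and 157.1 in high cells. In young mice it went from 106.2, 133.6 and 127.1 to 143.7, 176.3 and 158.6. It was higher in 7 of 7 mice, by 0.37 ± 0.07 (SE) on the log2 scale, or 1.29-fold (edgeR, adjusted p = 0.00605), and the call was kept in each alternative.

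The remaining members did not pass the threshold. Dlg1 went from 26.6 ± 6.76 (SD, n = 7) in low to 17.4 ± 4.29 in high cells and was lower in 6 of 7 mice, with a log2 difference of -0.61 ± 0.21 (SE). Its adjusted p was 0.0723 in edgeR, 0.0185 in DESeq2 and 0.0359 in limma voom. Of all 16126 genes DESeq2 called 3660 and limma voom 3094. Pard6b was lower in 6 of 7 mice (-0.64 ± 0.27, edgeR, adjusted p = 0.141) and Scrib higher in 6 of 7 mice (0.60 ± 0.24, edgeR, adjusted p = 0.126). For Rac1, Pard3, Prkci, Llgl2 and Numb the log2 difference was between -0.26 and 0.03, and the direction was shared by at most 5 of 7 mice.

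**Figure D4:**
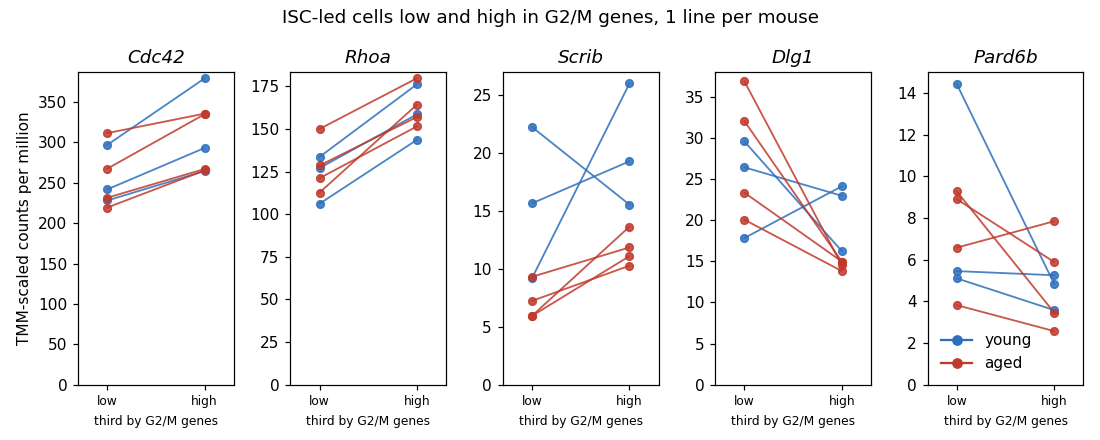
Levels in ISC-led cells low and high in G2/M genes, as CPM after TMM scaling with each axis from 0. Each line joins the 2 values of 1 mouse (3 young, 4 aged). Cdc42 and Rhoa go up in all 7 mice, Scrib in 6, and Dlg1 and Pard6b go down in 6.

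Cells high in G2/M genes had more detected genes, with medians per mouse from 9375.5 to 10251.5 against 7335.5 to 9589 in low cells. Their median reads were from 199131 to 393933 against 197035 to 379662. With every cell thinned to 100000 reads 4 members were called, as were 3996 of all 13127 genes tested in that setting. The 2 parts also differed in markers of cell type. In high cells 18 of 19 ISC markers were lower (13 called) and 11 of 11 Paneth markers (5 called), against 7 of 12 enterocyte markers. The part of the number of detected genes or of these markers in the differences of the members was not tested.

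Of the surrounding lists, 159 genes were tested here, and 28 were called (17.6%, against 16.0% of all genes), 11 higher and 17 lower. The 5 with the largest rises, chosen after their values were seen, were Iqgap3 (log2 difference 9.00 ± 0.32, SE), Racgap1 (6.35 ± 0.35), Dlgap5 (5.74 ± 0.37), Ect2 (3.78 ± 0.29) and Cit (3.18 ± 0.32). Ect2 and Racgap1 are the exchange factor and the GTPase-activating protein that control Rhoa at the cleavage furrow, and Cit acts there too. Gpsm2, the LGN protein that anchors the spindle to the cortex, rose by 1.91 ± 0.16 on the log2 scale. The largest fall was that of Rhov (log2 difference -2.65 ± 0.71, SE). The planar polarity cadherin Celsr1 fell by 1.23 and Rhoc by 1.00.

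The G2/M difference was then compared between the ages. The interaction was past the threshold in edgeR for 0 of 10 members and for 0% of the 16126 genes (596 genes, or 3.70%, at an unadjusted p under 0.05), and DESeq2 called 5 genes, none a member. For Cdc42 the difference in aged minus that in young mice was -0.05 with an interval from -0.34 to 0.24, and for Rhoa -0.03 with an interval from -0.37 to 0.31. The intervals of Dlg1 (-1.54 to 0.16) and Prkci (-1.30 to 0.14) were wider.

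The last comparison set cells led by markers of differentiated cells against ISC-led cells of the same mouse. Such a class is a range of a score and not a cell type, and 70 of the 1836 cells lay within 0.5 of the cut. Enterocyte-led cells numbered 85, Paneth-led cells 134 and goblet-led cells 56, and sums were made where a mouse had at least 5 such cells. Levels here were scaled together with the other classes, so they are not set beside those above.

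In enterocyte-led cells Cdc42 and Numb were higher. Of all genes, 15.4% were called (2599 of 16854), 8.60% higher and 6.82% lower, and the median log2 difference of all genes was -0.24. Cdc42 went from 195.3, 221.8 and 190.8 CPM in ISC-led cells of aged mice 2, 3 and 4 to 394.0, 279.3 and 329.4 in enterocyte-led cells. In young mice 1 and 3 it went from 220.2 and 186.0 to 296.3 and 373.7. The enterocyte-led sums held 10, 16 and 42 cells in these aged mice and only 5 and 7 in these young mice. Each enterocyte-led value lay above every ISC-led value, and the log2 difference was 0.75 ± 0.20 (SE), or 1.68-fold (edgeR, adjusted p = 0.0231).

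Numb went from 38.1, 48.3 and 62.6 CPM in ISC-led cells of aged mice 2, 3 and 4 to 70.6, 51.0 and 169.9 in enterocyte-led cells. In young mice 1 and 3 it went from 51.1 and 57.7 to 83.6 and 129.2. It was higher in 5 of 5 mice, although aged mouse 3 barely moved, and the log2 difference was 0.90 ± 0.22 (SE), or 1.86-fold (edgeR, adjusted p = 0.0159). Both calls were lost without some of the mice, while the log2 differences with a mouse left out stayed between 0.66 and 0.83 for Cdc42 and between 0.78 and 1.07 for Numb. Without aged mouse 2 the adjusted p was 0.123 for Cdc42 and 0.0648 for Numb, without aged mouse 4 it was 0.0832 and 0.0922, and without young mouse 1 it was 0.0645 and 0.0536.

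Prkci and Pard3 had the opposite sign, whereas Pard6b, the third Par complex gene measured, differed by 0.38 with an interval from -1.09 to 1.85 and was higher in 4 of 5 mice. Prkci was at 34.5 ± 11.4 (SD, n = 5) in ISC-led and 20.6 ± 6.47 in enterocyte-led cells, and Pard3 at 36.0 ± 4.89 and 26.6 ± 2.27. Both were lower in 5 of 5 mice, but neither passed the threshold (log2 differences -0.69 and -0.39, edgeR, adjusted p = 0.0772 and 0.247). Rhoa differed by 0.13 with an interval from -0.28 to 0.54. Enterocyte-led cells also had lower G2/M genes, with 20 of 20 lower and 5 called, and lower ISC markers, by which they were chosen.

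**Figure D5:**
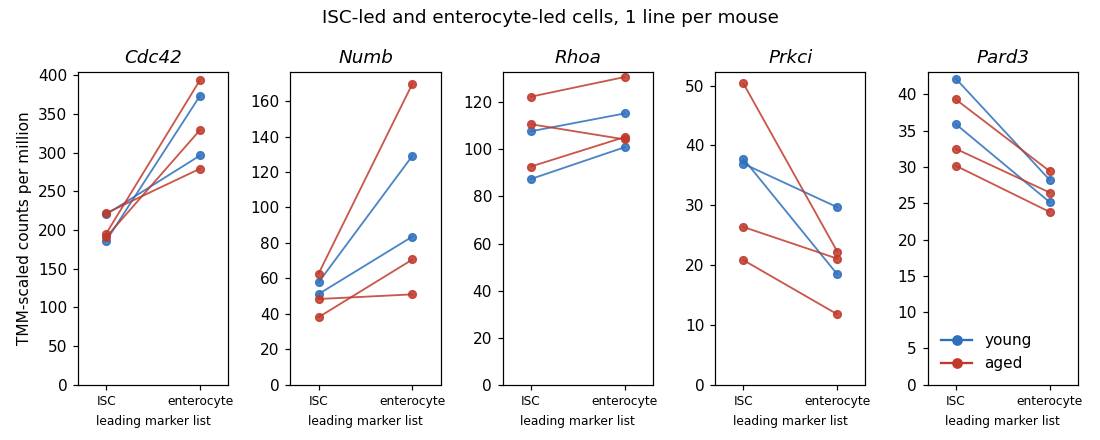
Levels in ISC-led and enterocyte-led cells of the 5 mice with at least 5 enterocyte-led cells, as CPM after TMM scaling with each axis from 0. Each line joins the 2 values of 1 mouse. Cdc42 and Numb go up and Prkci and Pard3 go down in all 5 mice, whereas Rhoa goes up in 4.

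In Paneth-led cells 0 of 10 members passed, against 13.7% of 16744 genes (2286, of which 7.55% were higher and 6.10% lower). Dlg1 came nearest, with 17.6 ± 4.40 (SD, n = 7) in ISC-led and 25.6 ± 6.47 in Paneth-led cells, higher in 6 of 7 mice. Its log2 difference was 0.58 ± 0.23 (SE), with an adjusted p of 0.107 in edgeR and 0.0264 in DESeq2, which called 3146 of the 16744 genes. Cdc42 was lower in 6 of 7 mice, and its log2 difference was -0.15 with an interval from -0.44 to 0.14. Whether the Cdc42 difference itself differed between enterocyte-led and Paneth-led cells was not tested.

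In goblet-led cells of 4 mice 0 of 10 members passed, against 2.99% of 17063 genes (510, of which 2.41% were higher and 0.58% lower). Rac1 was higher in 4 of 4 mice, from 55.7 ± 7.22 (SD, n = 4) to 84.8 ± 21.1, with a log2 difference of 0.58 ± 0.18 (SE) and an adjusted p of 0.149 in edgeR and 0.0210 in DESeq2. DESeq2 called 1427 of the 17063 genes here. The overlap with Daglb applies to this Rac1 value as well. Pard6b was lower in 4 of 4 mice, from 5.17 ± 1.05 to 2.01 ± 1.88, with a log2 difference of -1.76 ± 0.71 (SE) and an adjusted edgeR p of 0.274. Cdc42 was higher in 4 of 4 mice by a log2 difference of 0.20, with an interval from -0.15 to 0.56.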

How the data were processed

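Reads of single cells sorted for high Lgr5 were aligned by the authors to GRCm38 with HISAT2, and the submitters' processing notes also name HTSeq, both without a version. The deposited values are whole-number counts of reads per gene and cell, not normalized, and the sources used here give neither strand use nor annotation. Of 55471 identifiers 55230 were matched to GENCODE M21 for symbols, coordinates and exon lengths.

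The 84 cells with fewer than 1000 detected genes were removed, no doublet caller was run, and counts were summed per mouse, which was the replicate. Each numbered sample group of the labels was taken as 1 mouse. Depth was 49447464 to 134408884 reads per mouse, and precision from reads covers counting error only because PCR copies are not told apart. Genes were tested with the quasi-likelihood test of edgeR 4.0.16 (filterByExpr, TMM scaling, Benjamini-Hochberg over all genes, threshold 0.05) in R 4.3.3, with the mouse as a block in comparisons of cells within mice, and with DESeq2 1.42.0 and limma 3.58.1 as alternatives. Missing adjusted p values of DESeq2 stayed missing. Intervals are 95% and unadjusted. For single values per mouse the exact permutation test was two-sided (Python 3.11.15, numpy 2.4.6, scipy 1.17.1, pandas 2.3.3). Class of a cell was the list with the highest mean log2(CPM + 1).

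The members, lists and tests were chosen with earlier results of these data known. Named were all members, fixed relatives, the lowest p of each list, any list gene called by edgeR or DESeq2 between ages, and the 5 genes most like Cdc42. Alternatives were other scaling, filters, cell sets and depths, cells weighted equally, lane or replicate number as a block, other cell divisions and each mouse left out. Those of the interaction were added after seeing the data. The tests were tried on simulated data. Medians of some lists and the gene with the lowest p of a list are not reported here.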

Additional observations from a re-analysis of the deposited data

Results flagged for a closer look

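Among the 30 sets of 4 aged mice examined (level, share of cells with a read and SD between cells of each of the 10 genes), 1 held a mouse far from the others, and chance gives about 1 in 20. The SD between cells of log2(CPM + 1) of Rhoa was 2.04 in aged mouse 3 and 1.25 to 1.33 in the other aged mice. The same mouse had the lowest share of cells with a Rhoa read (93.2%) and the lowest Rhoa level (116.3 CPM). Young mouse 1 had the next highest SD, 1.75.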

How the results depend on the processing

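Between the ages 0 members passed the threshold in each of 20 alternatives. The list genes were counted in fewer of these. In 11, all with edgeR, 0 list genes passed, whereas DESeq2 called 2. They were not counted with thinned cells, lane as a block, cells weighted equally or limma voom. Pard3 and Scrib kept their sign in all 20. The other 8 changed sign in at least 1, and the cause was not tested. With cells weighted equally the log2 difference was -0.059 for Cdc42, 0.045 for Rac1, -0.19 for Dlg1 and -0.030 for Numb. With total counts only it was -0.0077 for Cdc42 and -0.0035 for Numb. For Rhoa it was 0.0071 with DESeq2, 0.0073 with RLE size factors and 0.035 in ISC-led cells. For Dlg1 it was -0.020 with limma voom and -0.089 with thinned cells, where Rac1 had 0.056. With lane as a block Prkci had 0.25 and Pard6b -0.64 (young mouse 2 counted once per lane). Leaving out each mouse gave ranges of -0.022 to 0.099 for Cdc42, -0.13 to 0.029 for Rac1, -0.10 to 0.087 for Rhoa, -0.40 to 0.14 for Pard6b, -0.37 to 0.11 for Prkci, -0.11 to 0.16 for Dlg1, -0.33 to 0.17 for Llgl2 and -0.12 to 0.19 for Numb.

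With the replicate number as a block 0 members passed, Rac1 had 0.021 and Numb -0.066. The numbers were not taken to pair the mice, which so few mice cannot settle. Deviations of same-numbered mice from their group means correlated at -0.111, 0.188 and -0.226. The closest aged mouse was 3 for young mouse 1 and 2 for young mouse 2, which share a lane, and 4 for young mouse 3. The block lowered the genes at an unadjusted edgeR p under 0.05 from 1098 to 764, with 0 called either way.

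In cells high against low in G2/M genes, 2 members passed in the main division. With the cells divided into 2 equal parts the count was 1 (1956 of 17359 genes called). Without the filter on low counts it was also 1 (2273 of 32321 genes called). Cdc42 was at 0.19 and 0.24 in these 2 settings. With thinned cells the count was 4 (3996 of 13127 genes called), and with a mouse left out 1 to 3 (1801 to 2420 genes called). In enterocyte-led cells the count was 0 to 3 with a mouse left out (1327 to 3260 genes called). In Paneth-led cells it was 1 with DESeq2 (3146 of 16744 genes called) and 2 with thinned cells (1911 of 14083). With a mouse left out it was 0 to 1 (1498 to 1981 genes called). In goblet-led cells it was 1 with DESeq2 (1427 of 17063 genes called) and 1 with thinned cells (853 of 14285). The interaction with age gave 0 members in its alternatives.

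The ages separated in the share of cells for 0 to 1 members with a mouse left out, and in the SD between cells for 1 to 2, but for 0 with cells thinned to 50000 reads or not thinned. The Cdc42 difference in SD was then 0.025 and 0.053. Aged and young mice number 4 and 3, and the low counts of Pard6b and Scrib limit what depth can show.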
